A study of Mus musculus with 12 samples.

Results

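Genes for the acrosome and for adhesion proteins of the sperm surface were followed in testes of young mice, 8 genes in all among the 20620 gene rows of the count table. They were *Acr*, *Acrbp*, *Acrv1*, *Spaca1*, *Zpbp*, *Zpbp2*, *Adam2* and *Adam3*, taken by name, and all 8 had a row with counts. The acrosome is a secretory vesicle that covers the front of the sperm nucleus, and it is built from the Golgi in round spermatids. Its contents and membranes, together with ADAM proteins on the plasma membrane, take part in the passage of sperm through the oviduct and in binding to the zona pellucida of the egg. Many such genes are transcribed already in pachytene spermatocytes, and some of their mRNAs are stored before they are translated. The question here was how far each gene was transcribed, and its mRNA bound by ribosomes, at an age when the most advanced germ cells are spermatocytes.

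The mice were C57BL/6 at P16 (postnatal day 16), and whole testes were used, so each value is a mean over germ cells and somatic cells. Controls were *Mael*+/- and carried 1 intact copy of *Mael*, while *Mael*-/- testes lacked the gene, whose protein Maelstrom is needed for piRNAs and for silencing of LINE-1 retrotransposons in germ cells. All testes were collected in cycloheximide, which holds ribosomes on mRNA, and each extract gave total RNA depleted of rRNA and ribosome footprints released with MNase. With 3 biological replicates in each of the 4 groups there were 12 libraries, and the labels do not say how many animals went into each. No wild-type testes and no other age were analysed here.

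The gene counts of an RNA library summed to between 13697267 and 27462358, those of a footprint library to between 7609932 and 13233565. Levels are given in CPM (counts scaled by the library's gene total and its TMM factor), and 3 counts in a library are treated as the floor of detection. *Mael* RNA was 173 CPM ± 39.9 (SD, n = 3) in *Mael*+/- and 0.0573 CPM in *Mael*-/- testes. There its 3 RNA libraries held 1, 2 and 0 counts and its footprint libraries 0, 0 and 7, so the labels matched the deleted gene. *Mael*+/- replicate 1 stood apart from the other 5 extracts. In it, the 14 measured markers of pachytene spermatocytes had a summed RNA level of 1150 CPM, against 448 to 523 CPM in the other RNA libraries, and 1240 CPM against 415 to 492 CPM in footprints. The 12 markers of early meiotic prophase were also highest there, at 2630 CPM against 1120 to 1580 CPM in RNA. Summed RNA of somatic markers was 7490 to 9000 CPM for Sertoli cells, 1230 to 1430 CPM for peritubular cells, 361 to 679 CPM for Leydig cells and 134 to 221 CPM for macrophages, and that of spermatogonial markers 1620 to 1990 CPM, with 0 genes of these 5 lists called between genotypes by edgeR. The 16 spermatid markers summed to 2.15 to 4.06 CPM over all 12 libraries. Of them, 12 had a count in some library and 6 passed the filter on low counts in RNA. The highest RNAs were *Tssk6*, *Tnp1* and *Oaz3*, at means of 0.672, 0.518 and 0.374 CPM in *Mael*+/- testes. *Prm1*, *Prm3*, *Tnp2* and *Smcp*, which mark elongating spermatids, had 0 counts in every library. In whole testes, fewer cells of a type and less RNA per cell cannot be told apart.

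In mm10 coordinates of the RefSeq annotation of GRCm38.p6, *Acr* lies at chr15:89568326-89578853 on the + strand and *Acrbp* at chr6:125049927-125063265 on the + strand. *Acrv1* lies at chr9:36693220-36698845 (+), *Spaca1* at chr4:34024872-34050067 (-), *Zpbp* at chr11:11279624-11464223 (-) and *Zpbp2* at chr11:98551097-98558665 (+). *Adam2* lies at chr14:66027322-66077851 (-) and *Adam3* at chr8:24677232-24726377 (-). None of the 8 shared exonic sequence with another curated gene on either strand. The coding part of the annotated exons ranged from 31.9% of their length in *Zpbp* to 90.2% in *Adam3*, which matters below because footprints were counted over coding sequence alone and RNA over the whole mRNA.

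Promoters are shown for 3 genes with clear RNA at this age, *Spaca1*, *Acrbp* and *Zpbp2*, and for *Acrv1*, whose RNA was near the floor. RefSeq windows of GRCm38.p6, from 250 bases before to 50 bases after the start, were given for 5 of the 8 genes, the 4 printed here and *Zpbp*. Capitals mark matches, on either strand, to the CRE half-site TGACG, the MYB motif TAACNG or CAACNG, and the X-box half-site GTTGCC. CREM, a regulator of spermatid genes, binds CRE sites, RFX factors bind X-boxes, and A-MYB (*Mybl1*) is the MYB factor of pachytene spermatocytes. Positions were chr4:34050016-34050315 (-) for *Spaca1*, chr6:125049677-125049976 (+) for *Acrbp*, chr11:98550847-98551146 (+) for *Zpbp2* and chr9:36692970-36693269 (+) for *Acrv1*, each printed 5′ to 3′ on the gene's strand.
Spaca1: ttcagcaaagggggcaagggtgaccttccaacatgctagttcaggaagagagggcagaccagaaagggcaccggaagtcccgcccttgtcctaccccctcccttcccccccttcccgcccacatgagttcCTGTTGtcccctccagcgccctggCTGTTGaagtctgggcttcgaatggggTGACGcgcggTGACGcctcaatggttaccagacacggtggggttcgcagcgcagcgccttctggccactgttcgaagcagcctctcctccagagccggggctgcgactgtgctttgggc
Acrbp: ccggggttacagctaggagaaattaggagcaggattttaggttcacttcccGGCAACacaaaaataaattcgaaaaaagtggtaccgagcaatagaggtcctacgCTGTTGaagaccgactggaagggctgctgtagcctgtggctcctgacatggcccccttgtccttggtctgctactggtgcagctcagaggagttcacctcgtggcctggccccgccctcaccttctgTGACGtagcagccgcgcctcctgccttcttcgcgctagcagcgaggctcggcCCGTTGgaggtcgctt
Zpbp2: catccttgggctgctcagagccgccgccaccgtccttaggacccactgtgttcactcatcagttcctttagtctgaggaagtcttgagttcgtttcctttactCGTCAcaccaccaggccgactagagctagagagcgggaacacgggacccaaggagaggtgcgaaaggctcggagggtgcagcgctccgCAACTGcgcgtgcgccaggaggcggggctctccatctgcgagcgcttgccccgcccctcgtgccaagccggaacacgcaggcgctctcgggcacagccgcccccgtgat
Acrv1: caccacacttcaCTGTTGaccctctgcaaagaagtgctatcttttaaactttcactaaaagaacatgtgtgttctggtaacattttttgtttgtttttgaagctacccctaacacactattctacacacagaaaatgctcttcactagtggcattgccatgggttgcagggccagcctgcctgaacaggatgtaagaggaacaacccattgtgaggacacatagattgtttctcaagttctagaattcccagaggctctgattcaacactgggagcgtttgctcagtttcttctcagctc
*Spaca1* held 2 CRE half-sites, beginning 69 and 59 bases before the start, and MYB matches at 120 and 96 bases. *Acrbp* held 1 CRE half-site at 18 bases before the start, MYB matches at 145 bases before and 35 bases after it, and the X-box half-site at 199 bases. *Zpbp2* held 1 CRE half-site at 147 bases and a MYB match at 59 bases, and *Acrv1* held none and a single MYB match at 238 bases. The *Zpbp* window held no match to any of these motifs. Of 32851 promoter windows of this length, 20.8% held the CRE half-site, 49.7% the MYB motif and 12.5% the X-box half-site, and the full CRE TGACGTCA, present in 1.79%, was in none of the 5. No binding was measured, so these matches describe the letters only.

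*Spaca1*, *Zpbp*, *Zpbp2* and *Acrbp* had counts in all 12 libraries, and of these *Spaca1* was the most even. *Spaca1*, which encodes a protein of the inner acrosomal membrane needed to shape the acrosome, had RNA at 6.85, 4.97 and 5.17 CPM in the *Mael*+/- libraries and 6.62, 4.86 and 6.31 CPM in the *Mael*-/- libraries. Its footprints were at 2.76, 2.72 and 2.44 CPM in *Mael*+/- and 2.04, 3.09 and 2.97 CPM in *Mael*-/- testes. The groups overlapped in both assays, and *Mael*+/- replicate 1 held 36.7% of the control RNA counts, close to an equal share of 3 libraries. *Zpbp*, a zona pellucida binding protein of the acrosomal matrix, had RNA at 23.4, 8.92 and 10.5 CPM in *Mael*+/- and 8.95, 9.42 and 8.10 CPM in *Mael*-/- testes. Its footprints were at 8.91, 4.40 and 4.39 CPM in controls and 3.78, 3.99 and 4.86 CPM without *Mael*. *Mael*+/- replicate 1 was the high library in both assays, and the other 5 extracts lay close together.

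Its paralog *Zpbp2* was lower, with RNA at 4.20, 1.57 and 2.27 CPM in *Mael*+/- and 2.33, 2.23 and 1.75 CPM in *Mael*-/- testes. *Zpbp2* footprints were sparse, with 26, 9 and 6 counts in *Mael*+/- and 12, 5 and 4 counts in *Mael*-/- libraries. *Acrbp* encodes the protein that binds proacrosin and holds it inactive in the acrosome. Its RNA was at 7.50, 4.13 and 3.32 CPM in *Mael*+/- and 4.51, 3.37 and 3.87 CPM in *Mael*-/- testes, with footprints at 7.10, 4.14 and 4.29 CPM and at 3.71, 5.09 and 3.92 CPM. Both genes were highest in *Mael*+/- replicate 1 and overlapped between genotypes.

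The acrosomal protease gene *Acr* (acrosin) behaved otherwise, with 66, 1 and 14 RNA counts in the *Mael*+/- libraries and 1, 2 and 1 in the *Mael*-/- libraries. Its footprints followed the same order in the *Mael*+/- libraries, with 56, 2 and 11 counts. In the *Mael*-/- libraries they were 1, 0 and 4, at or near the floor. *Mael*+/- replicate 1 alone supplied 81.5% of the control RNA counts of *Acr*, and without it the control mean fell from 1.14 to 0.283 CPM. *Acrv1*, which encodes the acrosomal vesicle protein SP-10, had at most 4 counts in any RNA library. Its footprints were 0 in every *Mael*+/- library, in *Mael*-/- replicates 2 and 3, and 2 in *Mael*-/- replicate 1. It was thus at or near the floor throughout, and no fold was drawn from it.

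The sperm surface gene *Adam2*, which encodes the beta subunit of fertilin, varied widely between libraries. Its RNA was at 30.2, 3.04 and 5.10 CPM in *Mael*+/- and 1.09, 0.991 and 1.06 CPM in *Mael*-/- testes. Footprints ran in parallel, at 31.7, 2.33 and 3.90 CPM in controls and 1.29, 0.898 and 0.593 CPM without *Mael*. Every *Mael*-/- library lay under every *Mael*+/- library in both assays, and *Mael*+/- replicate 1 held 76.2% of the control RNA counts. *Adam3* (cyritestin), needed for sperm to reach and bind the zona, had 39, 1 and 6 RNA counts in *Mael*+/- and 2, 1 and 2 in *Mael*-/- libraries. Its footprints were 2 in each *Mael*+/- library and 0 in each *Mael*-/- library, all within the floor. How reads shared between similar ADAM genes were handled is not given in the sources used here.

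**Figure D1:**
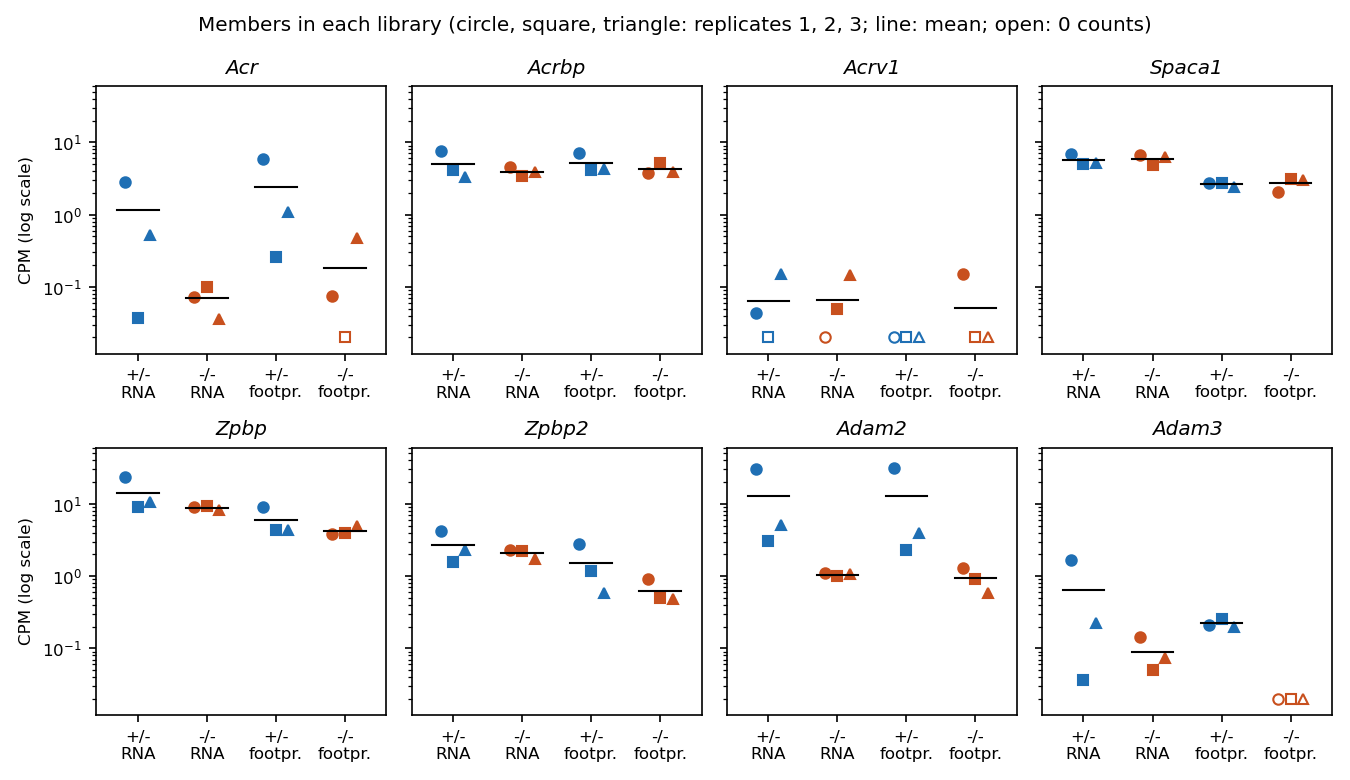
CPM of each of the 8 genes in every library on a log axis, by genotype and assay, with circles, squares and triangles for replicates 1, 2 and 3, lines for the mean of 3 and open symbols for 0 counts, drawn at the foot of the axis. Spaca1 sits between 4.86 and 6.85 CPM in all RNA libraries, whereas Adam2 spreads from 0.991 to 30.2 CPM.

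Levels between genes were compared after division by kilobases of annotated exon (RNA) or coding sequence (footprints). Each library was then rescaled to the same sum over genes, so these values are length-corrected shares and not CPM per kilobase. In *Mael*+/- RNA the order of means was *Adam2*, *Spaca1*, *Zpbp*, *Acrbp*, *Zpbp2*, *Acr*, *Adam3* and *Acrv1*, at 12.4, 10.6, 9.34, 5.83, 4.12, 1.83, 0.597 and 0.149 on this scale. No neighbours in this order differed by more than the larger of their SDs, and the SD of *Adam2* (14.6), set by replicate 1, exceeded its mean. In *Mael*-/- RNA, where replicates lay close, *Spaca1* came first at 11.1 ± 1.99 (SD, n = 3), ahead of *Zpbp* at 5.78 ± 0.514 and *Acrbp* at 4.59 ± 0.81. *Adam2* came after *Zpbp2* there, at 1.02 ± 0.0768 against 3.24 ± 0.553, and each of these gaps was wider than the larger SD of its pair. Against the 17210 genes with counts and a length in *Mael*+/- RNA, *Spaca1* stood at percentile 42.8, *Zpbp* at 41.2 and *Acrbp* at 35.8, all under the median gene. In footprints the order changed. *Spaca1*, at 3.76 ± 0.327 on this scale and percentile 30.2 in *Mael*+/-, followed *Adam2*, *Zpbp* and *Acrbp* at 7.66, 6.52 and 4.29. The SDs of *Adam2* (9.94) and *Acrbp* (1.29) were larger than their distances to *Spaca1*, and that of *Zpbp* (2.74) was about equal to it.

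Most of the detected genes were highest in *Mael*+/- replicate 1, to unequal degrees, with *Spaca1* the exception in footprints, where *Mael*-/- replicates 2 and 3 were higher (0.16 and 0.12 above the mean, against 0.04). On the scale of log2(CPM + 1), that RNA library lay above the mean of the 6 by 2.85 for *Adam2*, 1.46 for *Acr*, 1.05 for *Zpbp*, 0.68 for *Acrbp*, 0.66 for *Zpbp2* and 0.22 for *Spaca1*, which was nearly as high in *Mael*-/- replicate 1 (0.18). The median marker of pachytene spermatocytes lay 1.43 above its mean in the same library. *Adam2* was further above its mean than that median and *Spaca1* far less, while the scale understates changes of a gene as low as *Acr*. Across the 6 RNA libraries *Zpbp* correlated with *Adam2* at r = 0.95 and with *Zpbp2* at r = 0.94, and *Spaca1* with *Adam2* at r = 0.34, as a description of libraries of which 1 stands apart. What part pachytene cells had in these levels was not tested.

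**Figure D2:**
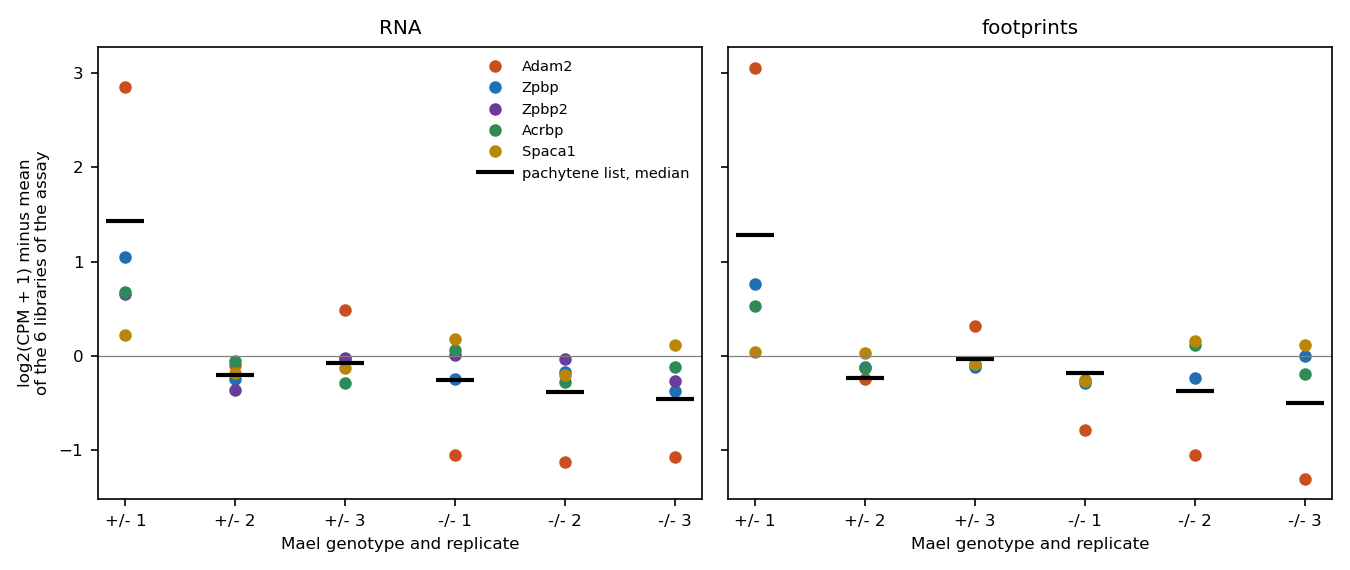
Difference in log2(CPM + 1) of each library from the mean of the 6 libraries of its assay, for members with enough counts to be tested (coloured points) and for the median of the pachytene marker list (black bars). In Mael+/- replicate 1 Adam2 lies 2.85 (RNA) above its mean and Spaca1 0.22, with the pachytene median at 1.43.

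The genes whose pattern over the 12 libraries was most like the mean of *Acrbp*, *Spaca1*, *Zpbp* and *Adam2* were *Smim24* (Pearson r = 0.996), *Piwil1* (0.994), *Tdrd6* (0.992), *Tcam1* (0.99) and *Pbx4* (0.989), of 12533 candidates. *Piwil1* encodes the PIWI protein of pachytene piRNAs and *Tdrd6* a Tudor protein of germ granules. Likeness was measured on log2(CPM + 1) centred within each assay, so the peak in *Mael*+/- replicate 1, 1.63 to 2.46 above the RNA mean for these 5 genes, enters every one of these values. In that RNA library *Adam2* lay 2.85 above its mean and *Spaca1* 0.22, so the averaged pattern leaned on *Adam2* and says little on *Spaca1*.

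Ribosome occupancy was compared with RNA within each genotype, as the log2 ratio of footprints to RNA in a fit over all 12 libraries (edgeR quasi-likelihood, Benjamini-Hochberg adjustment over 14374 genes). In *Mael*+/- testes 29.6% of all genes had fewer and 27.1% had more footprints than RNA at an adjusted p under 0.05, and in *Mael*-/- testes 30.1% and 26.9%, so a call is common in this contrast. Of the 8 members, 6 passed the filter on low counts, *Acrv1* and *Adam3* did not, and 2 were called in *Mael*+/- and 3 in *Mael*-/- testes, each with fewer footprints. *Spaca1* was 2.02-fold lower in footprints than in RNA in *Mael*+/- (log2 -1.02, SE 0.22, adjusted p = 0.00138, edgeR) and 2.08-fold lower in *Mael*-/- testes (log2 -1.06, SE 0.22, adjusted p = 0.000899, edgeR). Its footprint-to-RNA ratio in CPM was 0.403, 0.546 and 0.471 in the *Mael*+/- extracts and 0.309, 0.637 and 0.47 in the *Mael*-/- extracts, whereas the median gene was at 0.926 to 0.941. All 6 extracts of *Spaca1* lay under the median gene, and correction for the length of mRNA and coding sequence widened its difference to -1.47 and -1.50.

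*Zpbp* also had fewer footprints than RNA, by -1.18 (SE 0.34, adjusted p = 0.00852, edgeR) in *Mael*+/- and -0.99 (SE 0.35, adjusted p = 0.0276, edgeR) in *Mael*-/- testes on the log2 scale. Its ratio was 0.381, 0.493 and 0.418 in the *Mael*+/- extracts and 0.423, 0.424 and 0.601 in the *Mael*-/- extracts. With length corrected, the difference of *Zpbp* shrank to -0.48 and -0.28 (edgeR adjusted p = 0.246 and 0.526) and was no longer called, as only 31.9% of its annotated mRNA is coding. *Zpbp2* was lower by -0.74 in *Mael*+/- (SE 0.46, adjusted p = 0.191, edgeR), which was called only with the extract as a paired term (-0.8, adjusted p = 0.0138) or without replicate 1 (adjusted p = 0.0428). In *Mael*-/- testes *Zpbp2* was 2.98-fold lower (log2 -1.58, SE 0.53, adjusted p = 0.02, edgeR) on 21 footprint counts in all. Leaving out any 1 *Mael*-/- extract ended the calls of *Zpbp* and *Zpbp2* in that genotype, with log2 differences of -1.16 to -0.90 and -1.93 to -1.38, whereas the fit paired by extract called both (adjusted p = 4.71e-06 and 0.000224, edgeR).

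*Acrbp* and *Adam2* had log2 differences of 0.15 (95% interval -0.49 to 0.79) and 0.09 (-1.64 to 1.82) in *Mael*+/- testes, and neither was called. Length correction turned both signs in *Mael*+/- testes, to -0.40 and -0.63. In *Mael*-/- testes it turned that of *Acrbp*, from 0.21 to -0.34, and moved *Adam2* from -0.03 to -0.73, also without a call. *Adam2* had ratios of 1.05, 0.767 and 0.765 in the *Mael*+/- extracts. Its wide interval comes from a fit that ignores the pairing of RNA and footprints by extract. With the extract as a paired term its difference was -0.01 (SE 0.14), also not called and not corrected for length. *Acr* had 2.08 and 2.03 times as many footprints as RNA, each in CPM, in *Mael*+/- replicates 1 and 3. Its log2 difference of 1.23 (SE 0.95, adjusted p = 0.286, edgeR) was not called, and with the extract as a paired term it was (1.17, SE 0.32, adjusted p = 0.0023), though length correction of the unpaired value gave 0.54. Without *Mael*+/- replicate 1, *Acr* did not pass the filter on low counts. *Adam3* had 39 RNA counts and 2 footprints in *Mael*+/- replicate 1, a ratio of 0.126 (exact 95% interval 0.0147 to 0.485). In the same extract *Adam2* had a ratio of 1.05 (0.914 to 1.2), with both intervals covering counting error only. Pooled over the *Mael*+/- extracts the *Adam3* ratio was 0.366 (0.128 to 0.859), with 39 of its 46 RNA counts from replicate 1. *Adam3* had 1 RNA count and 2 footprints in replicate 2, and 6 and 2 in replicate 3, too few to place its ratio. The low value in replicate 1 thus rests on the extract where *Adam3* RNA was high and on footprints within the floor, so no difference between both ADAM genes is drawn.

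**Figure D3:**
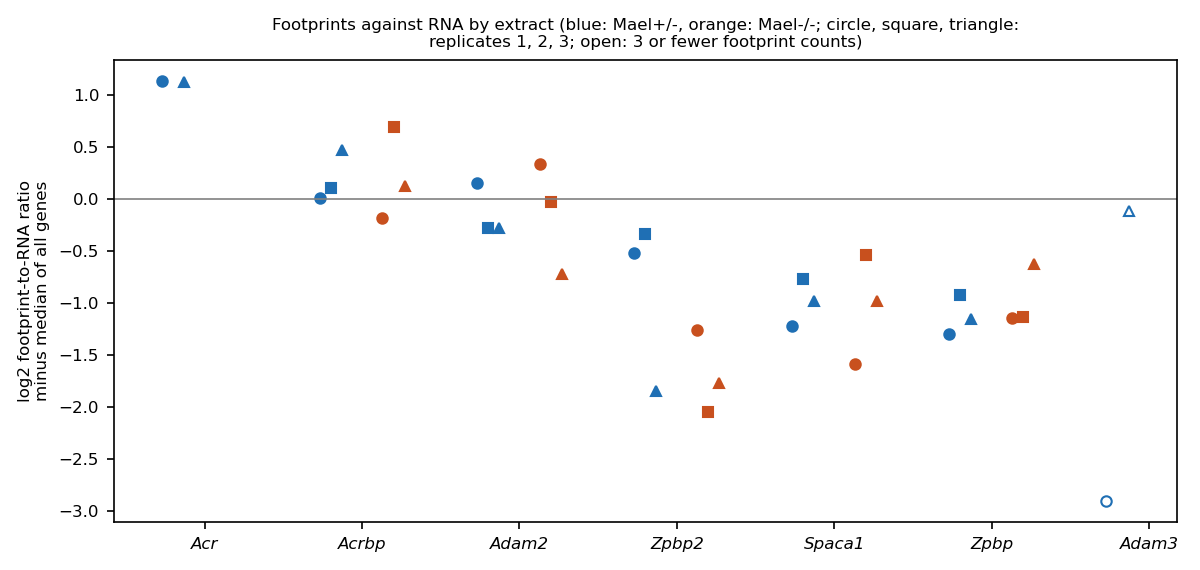
Log2 ratio of footprint CPM to RNA CPM in each extract, minus that of the median gene (line at 0), for extracts with more than 3 RNA counts and at least 1 footprint count, with open symbols for 3 or fewer footprint counts. Spaca1 and Zpbp lie under 0 in all 6 extracts, and Acr lies at 1.14 and 1.13 in Mael+/- replicates 1 and 3.

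Between genotypes, no member was called in either assay in the edgeR fit of all libraries by genotype alone. With all libraries, a fit with the replicate number as an added block called *Adam2* (adjusted p = 0.0145 in RNA and 0.0099 in footprints, edgeR). That fit called 50 genes in RNA and 23 in footprints, although the numbers did not pair the genotypes. By genotype alone, 0.116% of 14685 genes tested in RNA were called at an adjusted p under 0.05 (17 genes). In footprints it was 0.0593% of 13500 (8 genes). The filter on low counts kept 5 members in RNA and 4 in footprints. *Adam2* had the largest fitted difference among them, 12.1-fold lower in *Mael*-/- RNA (log2 -3.60, SE 0.82, unadjusted p = 0.00138, adjusted p = 0.423, edgeR) and 13.0-fold lower in footprints (log2 -3.71, SE 0.93, adjusted p = 0.694, edgeR). Without *Mael*+/- replicate 1 the difference in RNA was smaller and was called, as 1 of 64 genes (-1.96, SE 0.28, adjusted p = 0.00273, edgeR). That in footprints was not called (-1.71, SE 0.39, adjusted p = 0.21, edgeR). In the RNA fit of all libraries 11 of the 12 tested pachytene markers had a value under 0 (median -1.11, 0 called). Without *Mael*+/- replicate 1 it was 9 of 12 (median -0.21, 2 called). Their part in the *Adam2* difference was not tested. Complete separation of the genotypes with *Mael*-/- lower, as *Adam2* showed, was found for 5.03% of genes in RNA and 4.84% in footprints.

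*Zpbp* differed by -0.69 (SE 0.32, unadjusted p = 0.0544, adjusted p = 0.937, edgeR) in RNA, and by -0.14 without *Mael*+/- replicate 1. *Acrbp* and *Zpbp2* each differed by -0.35 in RNA (adjusted p = 0.982 for both, edgeR), and by 0.06 and 0.11 without that replicate, so their sign rested on 1 library. *Spaca1* differed by 0.07 (95% interval -0.38 to 0.51) in RNA and 0.02 (-0.58 to 0.62) in footprints, intervals that stay within 1 log2 unit of 0. *Acr* and *Adam3* were not tested for low counts. Their pooled control RNA exceeded *Mael*-/- RNA by 16.2-fold (exact 95% counting interval 6.07 to 60.7) and 7.34-fold (2.93 to 23.7), and *Acr* footprints by 15.9-fold (6.51 to 50.6). Without *Mael*+/- replicate 1 these RNA ratios were 4.27 and 1.6, on 15 and 7 control counts. These are ratios of pooled counts, and replicates of *Acr* overlapped between genotypes in both assays.

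**Figure D4:**
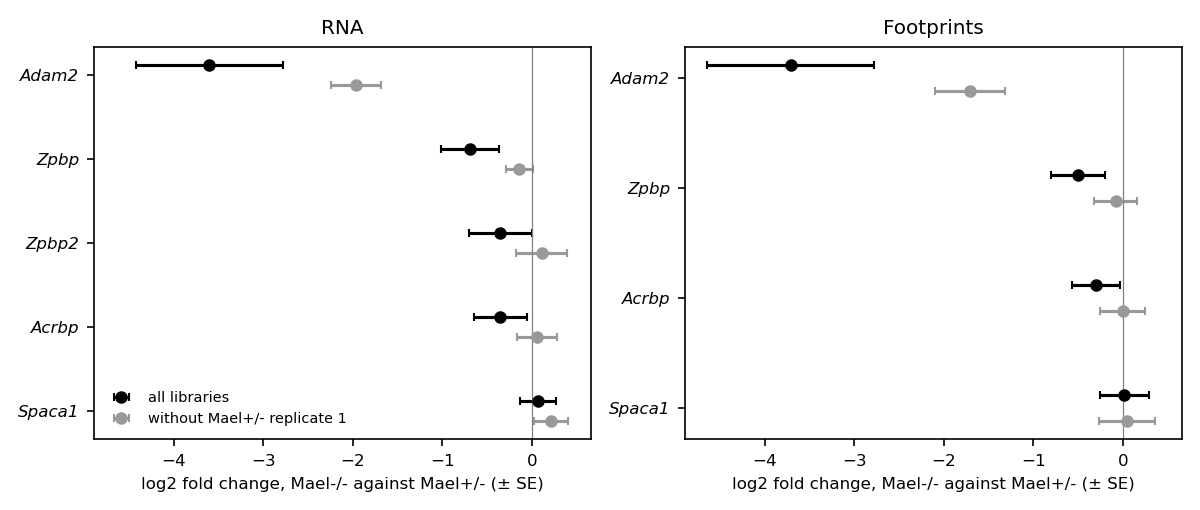
Log2 fold change of Mael-/- against Mael+/- testes with its SE for the members tested in each assay, with all libraries (black) and without Mael+/- replicate 1 (grey). The Adam2 value is -3.60, or -1.96 without that replicate, in RNA, and -3.71 or -1.71 in footprints, and Spaca1 lies at 0.07 (RNA) and 0.02 (footprints) with all libraries.

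The study asked whether loss of *Mael*, with its LINE-1 aggregates, alters translation, and the change of footprints beyond that of RNA was tested as an interaction over all 12 libraries. At an adjusted p under 0.05, 0.0% of 14374 genes were called by edgeR (0 genes, with 83 at an unadjusted p under 0.05), and DESeq2 also called 0. Of the members, 6 were tested. *Spaca1* had a difference in log2 ratio of -0.04 (95% interval -0.73 to 0.64), *Acrbp* 0.06 (-0.87 to 0.98) and *Zpbp* 0.19 (-0.87 to 1.26). *Zpbp2* had -0.84 (-2.38 to 0.7), *Adam2* -0.11 (-3.4 to 3.18) and *Acr* 0.05 (-2.17 to 2.27), all wide intervals. The fit ignores the pairing of RNA and footprints by extract, but pairing lowered the SE of *Acr* only from 1.04 to 0.87. *Acr* had 4 RNA and 5 footprint counts in *Mael*-/- testes and passed the filter only through *Mael*+/- replicate 1. Its value therefore cannot show whether its translation changed. With the extract as a paired term the values were -0.83 (SE 0.47) for *Zpbp2*, -0.07 (SE 0.35) for *Adam2* and 0.32 (SE 0.87) for *Acr*, still not called (edgeR adjusted p = 1 for each), and a change of several fold stayed undetectable for *Acr*.

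Other genes of the acrosome were mostly silent or faint at this age. Of 35 listed, 32 were in the table, 22 had a count in any library and 12 passed the filter in RNA, of which 0 were called between genotypes by edgeR and 9 had a value under 0 (median log2 -0.71, and -0.22 without *Mael*+/- replicate 1). *Spam1* and *Hyal5*, the sperm hyaluronidases, *Izumo2*, *Izumo3*, *Spaca3*, *Spaca4* and *Spaca7* had 0 counts in all libraries. The list's strongest RNAs were *Pick1* (47.8 CPM ± 5.8 in *Mael*+/- and 47.2 ± 0.481 in *Mael*-/- RNA, SD, n = 3) and *Gopc* (40.4 ± 6.14 and 40.5 ± 4.16), trafficking proteins that carry Golgi vesicles to the acrosome and are made in many tissues. *Spesp1*, an equatorial segment protein, was at 11.7 ± 8.55 and 3.96 ± 0.083 CPM in RNA (log2 -1.56, adjusted p = 0.621, edgeR).

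Of 19 other testis ADAM genes, 13 had counts and 4 were tested in RNA, with 0 called and 3 under 0. *Adam5* resembled *Adam2* in its spread, at 4.79 CPM ± 6.47 in *Mael*+/- and 0.555 ± 0.165 in *Mael*-/- RNA (SD, n = 3), as did *Adam32* at 2.2 ± 2.72 and 0.358 ± 0.01. *Adam1a*, which encodes a partner of ADAM2 in fertilin, was even, at 3.25 ± 0.889 and 3.35 ± 0.512 CPM. Factors that fold, modify or accompany ADAM3 on its way to the sperm surface included far more highly counted RNAs than *Adam3* itself. *Tex101* was at 418 CPM ± 204 in *Mael*+/- RNA and 738 ± 367 in footprints, and *Ly6k* at 93 ± 51.6 and 209 ± 114. Both had more footprints than RNA in *Mael*+/- testes (log2 0.9, adjusted p = 0.0224, and 1.26, adjusted p = 0.00619, edgeR), as did *Ace* (0.47, adjusted p = 0.00174, edgeR), 3 of the 7 tested factors, against 27.1% of all genes. These differences are without length correction, which lowered those of *Acr*, *Acrbp* and *Adam2* above, so they also hold the coding share of each mRNA. Between genotypes 0 of the 7 factors were called in RNA or in footprints by edgeR, and *Ly6k* differed by -1.28 in both (adjusted p = 0.501 and 0.568).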

How the data were processed

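RNA and ribosome footprints were measured in P16 testes, 3 replicates per genotype and assay. The authors removed rDNA reads with Bowtie 1.2.2, aligned to mm10 with STAR 2.6.0c and counted with featureCounts (Subread 1.6.4), over whole mRNA for RNA and coding sequence for footprints. They deposited raw counts per gene, without normalization, and their DESeq2 1.24.0 result tables (fold changes, p-values), which were not used here. The strand setting, the handling of multimapping reads and the collapsing of duplicates are not given in the sources used here, so exact intervals of count ratios cover counting error only, while intervals of log2 differences and p-values come from the spread between these samples.

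The 20620 gene rows were analysed, without the 5138235 repeat rows. Tests were edgeR 4.0.16 quasi-likelihood F-tests in R 4.3.3 on the whole table, with TMM factors, filterByExpr for low counts and p-values adjusted by Benjamini-Hochberg over all genes tested. They were tested on simulated counts with the same dispersion for every gene and no outlying library, which does not cover genes such as *Adam2*. Alternatives were DESeq2 1.42.0, other factors and filters, leaving out replicates, length correction (RefSeq lengths, 20409 genes) and a replicate block. The main fits of footprints against RNA and of translation efficiency had no term for the extract, so they ignore this pairing. RNA and footprint libraries of 1 extract were treated as paired in the alternative fit with the extract as block. Their deviations from the group mean correlated over 13463 genes at 0.78, 0.63 and 0.66 in *Mael*+/- and 0.25, 0.22 and 0.24 in *Mael*-/- testes, all over 0.1. The paired value is given where it changed a call, and for some members with wide intervals.

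Named genes were the 8 members, *Mael*, the 3 highest RNAs of each other list and the 5 genes most like the members, and some genes at 0 counts were named after their values were seen. Members and lists were chosen with earlier results of these data known.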

Additional observations from a re-analysis of the deposited data

How the results depend on the processing

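Counts of genes called between genotypes depended on the processing, and calls of members did so in fewer cases. In RNA, 17 genes were called by edgeR, 66 by DESeq2 and 4 with a mean of at least 50 counts. In footprints 8 were called by edgeR, 26 by DESeq2 and 1 with a mean of at least 50 counts. None of these settings called a member. Leaving out 1 replicate gave 2 to 64 genes and 0 to 1 members called in RNA, 64 and the 1 member, *Adam2*, without *Mael*+/- replicate 1, and 2 to 17 genes in footprints. The cause was not tested.

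The same replicate numbers in both genotypes did not pair the samples (correlations of deviations -0.01 to 0.22, with 3 of 6 RNA and 4 of 6 footprint libraries nearest to their own number). A fit with that replicate block called 50 genes in RNA and 23 in footprints, each with 1 member, *Adam2* (log2 -2.96, adjusted p = 0.0145, and -3.53, adjusted p = 0.0099, edgeR). For footprints against RNA the block was the extract, which called 4 members in *Mael*+/- testes and moved *Adam2* there to -0.01. It changed the call of no member besides *Acr* and *Zpbp2* in *Mael*+/- testes, while the genes called went from 8147 to 9962 in *Mael*+/- and from 8191 to 9992 in *Mael*-/- testes, where *Mael* itself was added (adjusted p = 0.0395, edgeR). That call of *Mael* rests on 3 RNA counts and 7 footprints, all 7 in *Mael*-/- replicate 3. Without that replicate the unpaired log2 difference went from 2.11 to -3.61. Length correction left 1 member called in *Mael*+/- testes and turned *Acrbp* to -0.40 and *Adam2* to -0.63 there, and *Acrbp* to -0.34 in *Mael*-/- testes. For footprints against RNA in *Mael*-/- testes, 1 to 3 members were called when 1 replicate was left out.

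Differences near 0 changed sign without 1 replicate. In RNA between genotypes the ranges were -0.57 to 0.06 for *Acrbp*, -0.02 to 0.22 for *Spaca1* and -0.63 to 0.11 for *Zpbp2*, and in footprints -0.09 to 0.20 for *Spaca1*. For translation efficiency they were -0.19 to 0.26 for *Acrbp*, -0.29 to 0.22 for *Spaca1*, -0.44 to 0.25 for *Adam2* and -2.06 to 0.99 for *Acr*, which failed the filter on low counts without *Mael*+/- replicate 1 and so was tested only through the library where it is high. For footprints against RNA, *Adam2* ranged from -0.25 to 0.15 in *Mael*+/- and -0.36 to 0.18 in *Mael*-/-, where *Acrbp* ranged from -0.04 to 0.40 and *Acr* from -0.85 to 2.21. Mean CPM in *Mael*+/- testes rested on replicate 1 for 3 members, and without it fell from 12.8 to 4.07 for *Adam2* RNA, 12.6 to 3.11 for *Adam2* footprints, 1.14 to 0.283 for *Acr* RNA and 0.651 to 0.132 for *Adam3* RNA. At the depth of these libraries *Acrv1*, and *Adam3* in footprints, stayed at or near 3 counts, so their absence cannot be told from low levels.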
